A study of Mus musculus with 18 samples.

Results

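Primary microglia of 2 mouse genotypes, both carrying a kinase-inactive Ripk1 allele on a Tbk1+/- background, were compared by RNA sequencing across all expressed genes. Libraries were taken by their genotype label: 3 labelled Tbk1+/-;Tak1ΔM/+;Ripk1D138N/+ and 3 labelled Tbk1+/-;Ripk1D138N/D138N, 6 of the 18 libraries and 2 of the 6 genotypes of the series. All 6 libraries were thus labelled Tbk1 heterozygous and all 6 were labelled with the D138N allele of Ripk1. The first genotype carried the Ripk1 allele in 1 copy together with 1 copy of the Tak1ΔM allele, and the second carried the Ripk1 allele in 2 copies with no altered Tak1, so the dose of D138N and the Tak1 allele changed together and cannot be told apart. Microglia came from forebrains of C57BL/6 pups at postnatal day 2 and were kept in culture for 7 days, then for 7 more days after a change of medium. WT, Tbk1+/-;Tak1ΔM/+ and Tbk1+/- cultures of the same series, 3 libraries each, are used where a result turns on them. The labels give neither the meaning of ΔM nor the promoter of any Cre recombinase. They also do not say whether pups were pooled, what sex they were, or whether replicate libraries stem from separate animals, so p-values measure the spread between libraries.

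Microglia are the resident macrophages of the brain. RIPK1 is a kinase recruited to the TNF receptor, where its scaffold supports NF-kB signalling and its kinase activity can drive apoptosis through caspase-8 and necroptosis through RIPK3 and MLKL. TAK1, encoded by Map3k7, and TBK1 both phosphorylate RIPK1 and hold its kinase activity back. TBK1 also phosphorylates IRF3 and so takes part in type I interferon production. D138N replaces an aspartate of the catalytic loop, which leaves the RIPK1 protein without kinase activity.

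The reference sequence around the D138N codon of Ripk1 is shown because it is the position altered per the labels of all 6 libraries. It is coding sequence of the GENCODE M21 transcript on the plus strand of GRCm38, chr13:34013310-34013372, and the capitals mark the codon of the aspartate that D138N replaces. The deposited gene counts do not show which base a library carried there.
Ripk1 D138N codon, reference: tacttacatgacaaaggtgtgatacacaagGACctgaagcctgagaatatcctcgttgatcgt

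Because the Tbk1 level went against several labels, the libraries are called triple-labelled and homozygous-labelled. Tbk1 (ENSMUSG00000020115, chr10:121546455-121586787, minus strand, GRCm38), the gene targeted in both genotypes, had 123, 107 and 115 CPM in the triple-labelled libraries, against 129.8, 54.9 and 131 CPM in the homozygous-labelled libraries. It had 106, 104 and 149 CPM in WT libraries, 55.1, 56.4 and 66 CPM in libraries labelled Tbk1+/-;Tak1ΔM/+ and 50.5, 65.6 and 57.1 CPM in libraries labelled Tbk1+/-. CPM are counts divided by the library total, scaled by edgeR's TMM factors, and multiplied by 1000000. Homozygous-labelled replicate 2 was thus the only library of the 6 at the level of the other Tbk1+/- labels, while the other 5 lay within the WT range. What the Tbk1 allele leaves of its transcript is not given in the labels, so the level alone does not set a genotype.

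Map3k7 had 10.2, 11.6 and 7.0 CPM in the triple-labelled libraries, against 16.6, 15.1 and 9.34 CPM in the homozygous-labelled libraries. The groups overlapped, since homozygous-labelled replicate 3 lay below triple-labelled replicates 1 and 2, and the log2 fold change was -0.51 with a 95% interval of -1.24 to 0.17. Ripk1 had 62, 23.1 and 26.2 CPM in the triple-labelled libraries, against 49.5, 23.7 and 16.2 CPM in the homozygous-labelled libraries. In both groups replicate 1 was far above the others, and the groups overlapped. Fold changes are from the quasi-likelihood test of edgeR and intervals from limma-voom on the same genes, both as triple-labelled minus homozygous-labelled. Lyz2, which encodes lysozyme of macrophages, had 40695, 38289 and 42594 CPM in the triple-labelled libraries, against 42278, 28523 and 39892 CPM in the homozygous-labelled libraries. Only homozygous-labelled replicate 2 lay apart, below the rest.

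**Figure D1:**
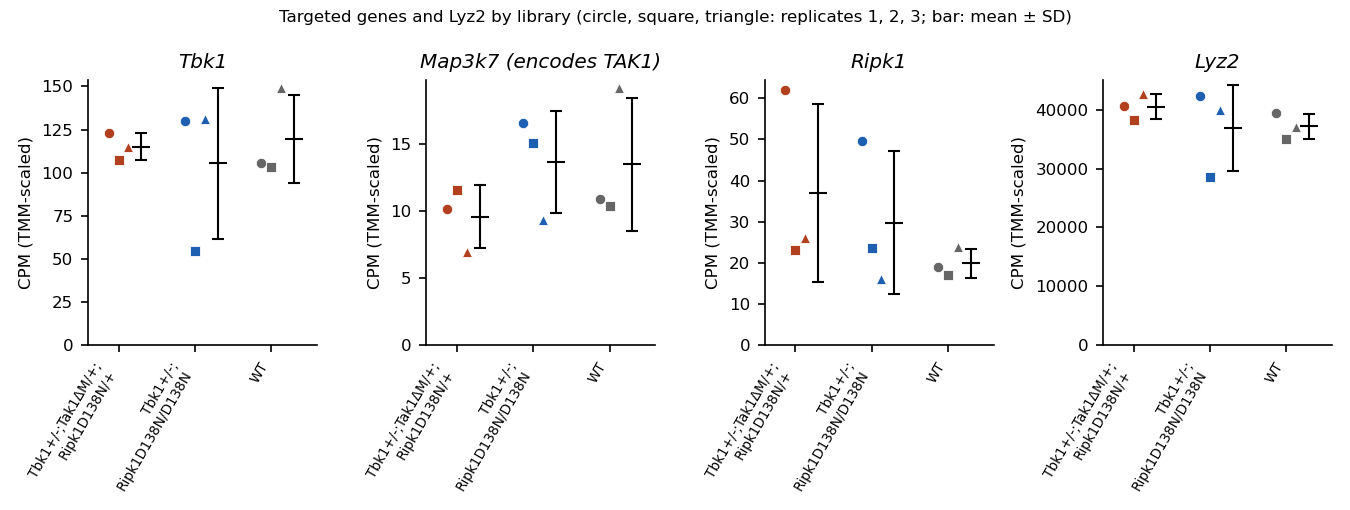
CPM of Tbk1, Map3k7, Ripk1 and Lyz2 in each library (y axis, TMM-scaled CPM; x axis, labelled genotype; symbols are replicates 1, 2 and 3; bars are mean ± SD, n = 3). Homozygous-labelled replicate 2 sits at 54.9 CPM of Tbk1, below all other libraries drawn, which lie at 104 CPM or above.

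The 6 libraries held 14290775 to 22989116 counts, of 8016559 to 22989116 over the series, and counts in 15672 to 16803 genes. They did not fall apart by genotype. Mitochondrially encoded genes took 0.370%, 1.10% and 1.05% of the counts of triple-labelled replicates 1, 2 and 3, against 0.451%, 1.57% and 0.449% in homozygous-labelled replicates 1, 2 and 3. Summed Y-linked genes had 0, 43.7 and 61.5 CPM of the total in the triple-labelled libraries, against 0, 42.9 and 0 CPM in the homozygous-labelled libraries. Triple-labelled replicate 1 and homozygous-labelled replicates 1 and 3 were therefore alike in both measures, with a low mitochondrial share and no Y-linked count, and the other 3 libraries were the reverse. Xist, the RNA that silences one X chromosome in females, had 157.8, 55.4 and 54.8 CPM of the total in the triple-labelled libraries, against 173.6, 162.4 and 200.4 CPM in the homozygous-labelled libraries, so libraries with both Xist and Y-linked reads were present and a mix of pups was not tested. By correlation across genes, 1 side of this division recurred clearly and the other in part. The log2 CPM of triple-labelled replicate 1 correlated at 0.977 with homozygous-labelled replicate 1 and at 0.972 with homozygous-labelled replicate 3. With replicates 2 and 3 of its own genotype it correlated at 0.955 and 0.957. Those replicates, triple-labelled 2 and 3, correlated with each other at 0.9725. Homozygous-labelled replicate 2 correlated at 0.9603 and 0.9565 with triple-labelled replicates 2 and 3. With homozygous-labelled replicates 1 and 3 it correlated at 0.9538 and 0.9562. Triple-labelled replicate 3 was nearer to homozygous-labelled replicate 3, at 0.9606, than to homozygous-labelled replicate 2. These correlations are across the genes of higher counts, without TMM scaling, and genes are not independent replicates. In principal components of the most variable genes in all 18 libraries, axis 1 (16.5% of the variance) held both sides apart. Triple-labelled replicates 2 and 3 and homozygous-labelled replicate 2 lay at -12.5, -11.8 and -12.7. Triple-labelled replicate 1 and homozygous-labelled replicates 1 and 3 lay at 13.3, 10.5 and 5.97. On axis 2 (11.4%) homozygous-labelled replicate 2 lay with the latter on the negative side, triple-labelled replicates 2 and 3 on the positive. The mitochondrial share, the Y-linked level and the genotype moved in part together, since 2 of 3 triple-labelled but 1 of 3 homozygous-labelled libraries were on the high side. Their part in the results was not tested beyond the fits with these measures as covariates.

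**Figure D2:**
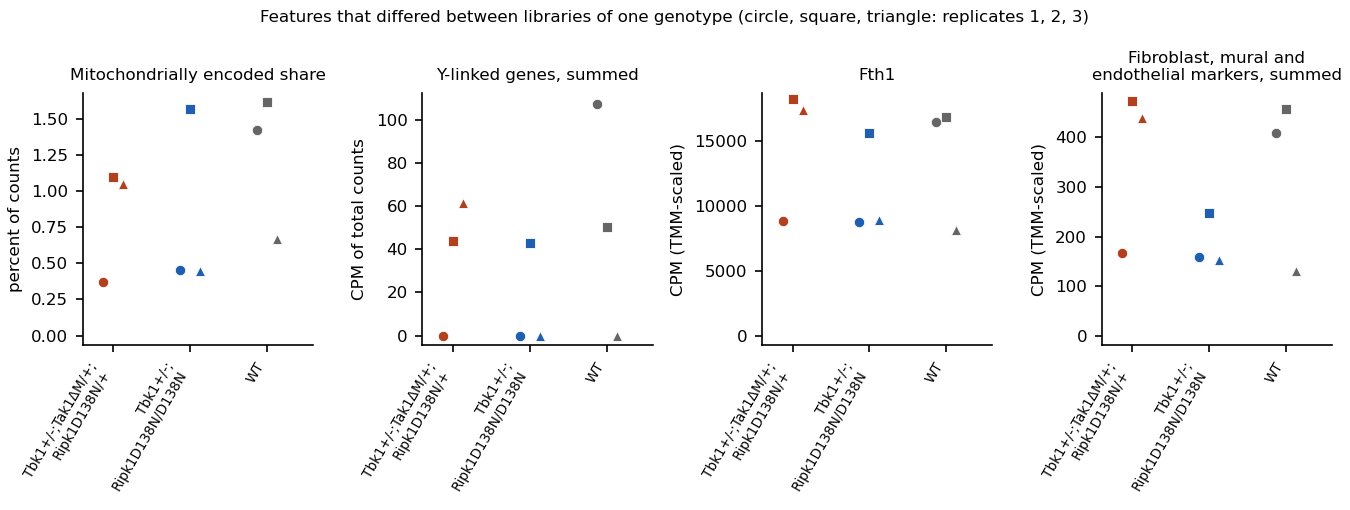
Mitochondrially encoded share (percent of counts), summed Y-linked genes (CPM of total counts), Fth1 (TMM-scaled CPM) and summed fibroblast, mural and endothelial markers (TMM-scaled CPM) by library; the x axis is the labelled genotype and the symbols are replicates 1, 2 and 3. In each panel triple-labelled replicate 1 lies beside homozygous-labelled replicates 1 and 3, for Fth1 at 8874 CPM against 8798 and 8924 CPM.

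No gene differed between the genotypes at the adjusted threshold. Of 13447 genes tested, 0 had an adjusted p under 0.05 in edgeR's quasi-likelihood test with Benjamini-Hochberg adjustment (0% called), and the smallest adjusted p was 0.891. Unadjusted, 741 genes had a p under 0.05, 5.51% of those tested, with 331 higher (2.46%) and 410 lower (3.05%) in the triple-labelled libraries. The libraries of both groups did not overlap in 1425 genes, 10.6%, and the log2 fold change was above 0 in 50.2%. DESeq2 and limma-voom on the same genes also called 0 genes, with 826 and 740 at an unadjusted p under 0.05. Only the fit without a low-count filter gave calls, 70 genes with 30 higher and 40 lower. Without the filter, the spread between libraries was estimated as one common trend for all genes, with infinite prior degrees of freedom, against 5.58 with the filter. Against WT, 0 genes were called in the triple-labelled libraries and 0 in the homozygous-labelled libraries by edgeR, with 1074 and 688 at an unadjusted p under 0.05, and DESeq2 and limma-voom were not run for these.

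The absence of calls does not show that the genotypes are alike. The intervals give the precision for single genes and are not adjusted for the number of genes. They therefore do not show how large a change the adjusted test would have called. The 95% interval of the log2 fold change had a median half-width of 0.63 over all tested genes, and of 0.46 over the 8901 genes that averaged 5 CPM or more in the 6 libraries. It lay entirely within a log2 change of 1 in either direction for 7404 genes (55.1%), and for 7240 (81.3%) of the genes of at least 5 CPM. For Lyz2 the interval was -0.24 to 0.55, for the interferon-induced Isg15 -0.39 to 0.75, and for the proliferation marker Mki67 it was far wider, at -1.16 to 1.75. These intervals cover the spread between libraries, and counts of amplified cDNA without molecular identifiers are not independent molecules.

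Among the genes with the smallest unadjusted p, no overlap between libraries and at least 5 CPM in 1 group, those higher in the triple-labelled libraries included matrix, membrane and signalling genes. Ift140, a component of the transport machinery of cilia, had 16.7, 18.7 and 23.4 CPM in the triple-labelled libraries, against 8.94, 5.13 and 10.5 CPM in the homozygous-labelled libraries. The log2 fold change was 1.25 (95% interval 0.69 to 1.86), and WT libraries, at 16, 10.7 and 14.7 CPM, lay between the groups. Cd109, a membrane protein known to restrain TGF-beta signalling, had 7.71, 12.6 and 9.43 CPM in the triple-labelled libraries, against 0.517, 2.36 and 4.46 CPM in the homozygous-labelled libraries. WT libraries had 9.37, 16.6 and 9.98 CPM, near the triple-labelled libraries. Tbk1+/-;Tak1ΔM/+ libraries, at 4.14, 2.48 and 3.04 CPM, and Tbk1+/- libraries, at 5.02, 4.11 and 4.38 CPM, were low like the homozygous-labelled libraries. The log2 fold change of Cd109 between the Ripk1 genotypes was 2.02 (interval 1.26 to 3.66). Lox, the lysyl oxidase that cross-links collagen, had 5.93, 5.56 and 7.93 CPM in the triple-labelled libraries, against 1.14, 1.94 and 2.15 CPM in the homozygous-labelled libraries. The log2 fold change was 1.89 (interval 0.91 to 3.02), while WT libraries spread from 2.44 to 9.37 CPM, over the triple-labelled range and above all 3 homozygous-labelled libraries. Htr2b, the serotonin 2B receptor, had 22.7, 57.3 and 48.2 CPM in the triple-labelled libraries, against 19.9, 19.3 and 14.5 CPM in the homozygous-labelled libraries. Triple-labelled replicate 1 lay next to the homozygous-labelled libraries here, and replicates 2 and 3 made the difference of 1.25 (interval 0.40 to 1.92).

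Mfsd6, a transporter-like membrane protein, had 37.1, 42.1 and 41.4 CPM in the triple-labelled libraries, against 28.1, 21.4 and 18.6 CPM in the homozygous-labelled libraries. The triple-labelled libraries lay close together and near the WT level of 42.7, 40.5 and 38.2 CPM, with a log2 fold change of 0.82 (interval 0.38 to 1.29). Ext1, which builds heparan sulfate chains, had 7.94, 8.27 and 6.77 CPM in the triple-labelled libraries, against 4.13, 2.64 and 2.09 CPM in the homozygous-labelled libraries. Its log2 fold change was 1.37 (interval 0.64 to 2.13). The other genes chosen in this direction were Clstn1 (calsyntenin 1), Klhdc10 (a ubiquitin ligase adaptor), Brat1 (a partner of the DNA damage kinase ATM) and Ppme1 (the methylesterase of protein phosphatase 2A), with log2 fold changes of 1.25, 1.08, 0.76 and 0.45. None of the 10 had an adjusted p under 0.891. Of the 10, Ift140, Cd109 and Htr2b were called in the fit without a low-count filter.

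**Figure D3:**
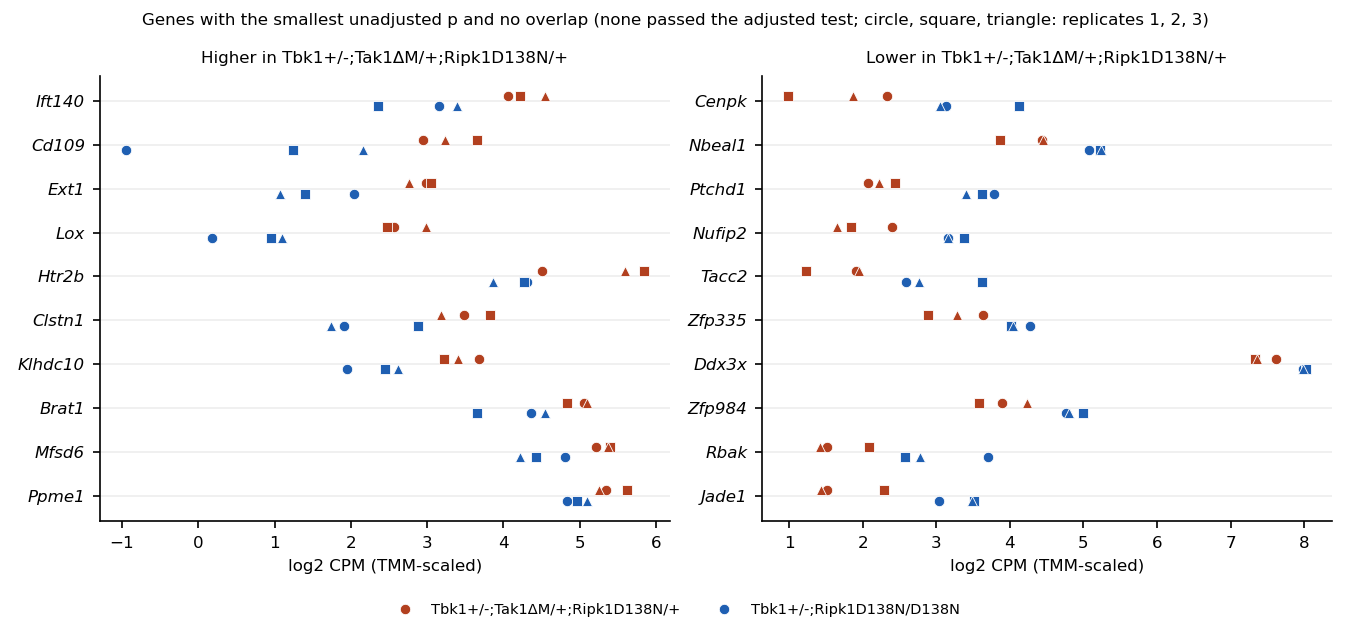
Log2 CPM (x axis, TMM-scaled) of the 10 genes of smallest unadjusted p in each direction, with triple-labelled libraries drawn above homozygous-labelled libraries on each row; symbols are replicates 1, 2 and 3. The genes were chosen for lack of overlap and low p, and none passed the adjusted test.

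Genes lower in the triple-labelled libraries by the same rule included a kinetochore gene, several zinc finger genes and X-linked genes. Cenpk, a kinetochore protein needed for chromosome segregation, had 5.04, 1.98 and 3.64 CPM in the triple-labelled libraries, against 8.73, 17.5 and 8.27 CPM in the homozygous-labelled libraries. Its log2 fold change was -1.68 (interval -2.50 to -0.69), and the WT libraries, at 14.6, 7.95 and 15.4 CPM, lay with the homozygous-labelled libraries. Nbeal1, a BEACH domain protein, had 21.7, 14.6 and 21.9 CPM in the triple-labelled libraries, against 33.8, 37.5 and 37.7 CPM in the homozygous-labelled libraries. The WT libraries, at 30.3, 32.9 and 37.4 CPM, again lay with the homozygous-labelled libraries, and the log2 fold change between the Ripk1 genotypes was -0.90 (interval -1.35 to -0.43). Ddx3x, an RNA helicase encoded on the X chromosome, had 197, 162 and 164 CPM in the triple-labelled libraries, against 254, 261 and 252 CPM in the homozygous-labelled libraries. Its log2 fold change was -0.55 (interval -0.86 to -0.26), and WT libraries had 275, 293 and 315 CPM. Ptchd1, a membrane protein of the patched family that is also X-linked, had 4.21, 5.41 and 4.67 CPM in the triple-labelled libraries, against 13.7, 12.3 and 10.6 CPM in the homozygous-labelled libraries, and 2.41, 6.01 and 4.99 CPM in WT libraries. Ddx3x has a Y-linked counterpart and can escape X silencing, and triple-labelled replicate 1, which had no Y-linked count and 157.8 CPM of Xist, had the highest Ddx3x of its group. Homozygous-labelled replicate 2, the only library of its group with Y-linked reads, also had the highest Ddx3x of its group. The part of sex in these differences was not tested beyond the fit with the Y-linked level as a covariate, which called 0 genes.

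Zfp984, a zinc finger gene, had 14.9, 12 and 18.7 CPM in the triple-labelled libraries, against 27.1, 31.8 and 27.9 CPM in the homozygous-labelled libraries. Its log2 fold change was -0.93 (interval -1.43 to -0.37), and all 3 WT libraries, at 31.9, 34.6 and 32.4 CPM, were above every triple-labelled library. Jade1, a subunit of the HBO1 histone acetyltransferase complex, had 2.85, 4.9 and 2.71 CPM in the triple-labelled libraries, against 8.22, 11.4 and 11.2 CPM in the homozygous-labelled libraries. Its log2 fold change was -1.56 (interval -2.63 to -0.62). Nufip2 (an RNA-binding protein), Tacc2 (a centrosome protein), Zfp335 and Rbak (zinc finger regulators) had log2 fold changes of -1.24, -1.32, -0.81 and -1.42. Cenpk, Nbeal1, Zfp984 and Jade1 were called without the low-count filter.

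The pathway in which the altered kinases act was close to level between the genotypes. Of 36 tested genes of TNF, RIPK1, TBK1 and TAK1 signalling, 16 had a positive and 20 a negative log2 fold change, with a median of -0.02, and 3 had an unadjusted p under 0.05 (8.33%, against 5.51% of all genes). Optn, the autophagy receptor optineurin that binds TBK1, had 36.8, 49.8 and 44.1 CPM in the triple-labelled libraries, against 23.7, 34.3 and 29.2 CPM in the homozygous-labelled libraries. The triple-labelled libraries were all higher, by 0.58 on the log2 scale (interval 0.18 to 1.02). Rnf31, the catalytic subunit of the linear ubiquitin ligase that modifies RIPK1, had 22.1, 22.4 and 20.2 CPM in the triple-labelled libraries, against 29.7, 27.4 and 29.7 CPM in the homozygous-labelled libraries. It was lower by this measure, at -0.43 (interval -0.81 to -0.07), without overlap. WT libraries had 43.6, 38.5 and 30.7 CPM of Optn and 24.8, 24.6 and 26.1 CPM of Rnf31.

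Genes downstream of this pathway were spread around 0. The 26 tested NF-kB feedback and target genes had a median log2 fold change of 0.04, with 0 at an unadjusted p under 0.05. Birc2, which encodes the ubiquitin ligase cIAP1, had 13.8, 10.3 and 17.6 CPM in the triple-labelled libraries, against 24.6, 15.5 and 20.2 CPM in the homozygous-labelled libraries. Cflar, which encodes the caspase-8 inhibitor cFLIP, had 54.4, 71 and 62.5 CPM in the triple-labelled libraries, against 59.5, 48.4 and 53.5 CPM in the homozygous-labelled libraries. In both genes the libraries of the groups overlapped. Of 25 inflammatory cytokine and chemokine genes, 8 were positive and 17 negative, with a median of -0.22 and 0 at an unadjusted p under 0.05. The list summed to 26900, 43153 and 39113 CPM in the triple-labelled libraries, against 28562, 49615 and 28490 CPM in the homozygous-labelled libraries. Ccl2, the monocyte chemoattractant, had 7.23, 11.3 and 6.91 CPM in the triple-labelled libraries, against 7.49, 53.1 and 6.49 CPM in the homozygous-labelled libraries. Homozygous-labelled replicate 2 alone was high, and without it the log2 fold change of Ccl2 was 0.26 in place of -1.40. Il1a, which encodes interleukin 1 alpha, had 0.771, 11.4 and 6.91 CPM in the triple-labelled libraries, against 2.74, 2.15 and 1.88 CPM in the homozygous-labelled libraries, with triple-labelled replicate 1 below all homozygous-labelled libraries and replicates 2 and 3 above them.

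Among 22 apoptosis regulators the median log2 fold change was -0.02, and 1 had an unadjusted p under 0.05 (4.55%, against 5.51% of all genes). That gene was Xiap, an X-linked caspase inhibitor, which had 47.3, 58.6 and 47.7 CPM in the triple-labelled libraries, against 64.5, 61 and 69.2 CPM in the homozygous-labelled libraries. The groups did not overlap, and the log2 fold change was -0.34 (interval -0.68 to -0.04). Among 20 p53 targets the median was 0.08 and 1 passed the same unadjusted threshold (5%). Phlda3, a p53-induced inhibitor of AKT, had 19.9, 16.5 and 29.8 CPM in the triple-labelled libraries, against 15.6, 9.99 and 11.7 CPM in the homozygous-labelled libraries, a log2 fold change of 0.83 (interval 0.01 to 1.65).

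Type I interferon response genes lay slightly lower in the triple-labelled libraries. Of 51 tested, 36 had a negative log2 fold change and the median was -0.22, against a median of 0.00 for all genes. Unadjusted p was under 0.05 for 6 (11.8%, against 5.51% of all genes), 5 of them lower. When single libraries were dropped the median stayed between -0.29 and -0.14, while the count under 0.05 ran from 0 to 9. Summed over the list, the genes had 1509, 1467 and 1555 CPM in the triple-labelled libraries, 1645, 1689 and 1630.0 CPM in the homozygous-labelled libraries and 1581, 1515 and 1627 CPM in WT libraries. The triple-labelled and homozygous-labelled sums did not overlap, and the WT sums lay between or within them. Rtp4, an interferon-induced gene, had 30.9, 22.4 and 25.4 CPM in the triple-labelled libraries, against 40.5, 41.6 and 38.7 CPM in the homozygous-labelled libraries. Eif2ak2, which encodes the double-stranded RNA sensor PKR, had 12.5, 9.51 and 10 CPM in the triple-labelled libraries, against 15.1, 13.2 and 18.8 CPM in the homozygous-labelled libraries. Both were lower without overlap, with log2 fold changes of -0.62 (interval -1.20 to -0.04) and -0.56 (interval -1.07 to -0.06). Isg15, a ubiquitin-like protein often used to read interferon signalling, went the other way in value, with 4.86, 5.56 and 5.65 CPM in the triple-labelled libraries, against 3.82, 5.48 and 5.21 CPM in the homozygous-labelled libraries, and overlapped.

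Antigen presentation genes were positive for 17 of 21, with a median log2 fold change of 0.12. An unadjusted p under 0.05 was found for 2 (9.52%, against 5.51% of all genes). Nlrc5, the transactivator of MHC class I genes, had 15.1, 20 and 15.5 CPM in the triple-labelled libraries, against 11.1, 7.91 and 9.34 CPM in the homozygous-labelled libraries, all higher than the homozygous-labelled libraries by 0.84 on the log2 scale (interval 0.28 to 1.32). H2-Eb1, an MHC class II gene, had 0.237, 0.0732 and 0.887 CPM in the triple-labelled libraries and no count in the 3 homozygous-labelled libraries. At these levels it was near the limit of detection, and WT replicates 1 and 3 had no count either.

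Genes that mark the state of microglia gave small differences in both directions. Of 25 tested homeostatic microglia genes, 18 were positive with a median log2 fold change of 0.08. An unadjusted p under 0.05 was found for 4 (16%, against 5.51% of all genes), with 2 higher and 2 lower. Of the 2 higher, Cd33 had 30.5, 96.4 and 85.7 CPM in the triple-labelled libraries, against 40.8, 29.8 and 40 CPM in the homozygous-labelled libraries. Its log2 fold change was 0.94 (interval -0.07 to 1.61), and triple-labelled replicate 1 lay within the homozygous-labelled range. Gpr34, an X-linked lysophosphatidylserine receptor of homeostatic microglia, had 72.9, 67 and 54.4 CPM in the triple-labelled libraries, against 108, 83.7 and 132 CPM in the homozygous-labelled libraries. Mef2c, a transcription factor of microglia, had 165, 108 and 113 CPM in the triple-labelled libraries, against 176, 184 and 175 CPM in the homozygous-labelled libraries. Both were lower in all triple-labelled libraries, by -0.74 (interval -1.28 to -0.20) and -0.47 (interval -0.83 to -0.15), and the WT libraries, with 89.8, 136 and 167 CPM of Gpr34 and 132, 132 and 192 CPM of Mef2c, overlapped the homozygous-labelled libraries in Gpr34 and both groups in Mef2c.

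Of 27 disease-associated microglia genes, 22 were positive with a median of 0.15. At an unadjusted p under 0.05, 3 were higher (11.1%, against 2.46% of all genes). With single libraries dropped, 0 to 6 were under this threshold. The list summed to 177003, 212447 and 223410 CPM in the triple-labelled libraries, against 178761, 200072 and 179564 CPM in the homozygous-labelled libraries. Homozygous-labelled replicate 2 was thus above replicates 1 and 3 of its label, and triple-labelled replicate 1 was the lowest. Ank, a pyrophosphate transporter, had 89.2, 79.4 and 88.9 CPM in the triple-labelled libraries, against 72.8, 71.7 and 68.8 CPM in the homozygous-labelled libraries. Ctsd, the lysosomal protease cathepsin D, had 9394, 13659 and 14598 CPM in the triple-labelled libraries, against 9093, 10858 and 8876 CPM in the homozygous-labelled libraries, where triple-labelled replicate 1 lay within the homozygous-labelled range. Lysosome and autophagy genes were positive for 25 of 30, with a median of 0.14. At an unadjusted p under 0.05, 5 were higher (16.7%, against 2.46% of all genes). When single libraries were dropped, 22 to 25 stayed positive, and 1 to 7 were under the unadjusted threshold. The lysosome and autophagy list summed to 48877, 56784 and 58924 CPM in the triple-labelled libraries, against 49385.5, 52110 and 48562 CPM in the homozygous-labelled libraries. Glb1, the lysosomal beta-galactosidase, had 159, 220.2 and 237 CPM in the triple-labelled libraries, against 153, 152 and 150.4 CPM in the homozygous-labelled libraries. Again triple-labelled replicate 1 lay next to the homozygous-labelled libraries and replicates 2 and 3 lay well above, with a log2 fold change of 0.44 (interval 0.10 to 0.73).

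Complement, Fc and phagocytic receptor genes were evenly divided, 14 positive and 13 negative of 27, with a median of 0.02. Cd36, a scavenger receptor, had 2949, 3887 and 3197 CPM in the triple-labelled libraries, against 3796, 8423 and 3670.2 CPM in the homozygous-labelled libraries, and homozygous-labelled replicate 2 stood far above all other libraries. Of 16 genes of arginine metabolism and alternative activation, 9 were positive with a median of 0.04. Arg2, the mitochondrial arginase, had 17.3, 28.9 and 24.6 CPM in the triple-labelled libraries, against 12.6, 9.64 and 13.2 CPM in the homozygous-labelled libraries, without overlap and with a log2 fold change of 1.00 (interval -0.18 to 2.08). Arg1, the cytosolic arginase, had 75.1, 90 and 68.1 CPM in the triple-labelled libraries, against 55.6, 24.3 and 60.5 CPM in the homozygous-labelled libraries, also without overlap, with an interval of -0.49 to 2.04. The S100 and lysozyme genes were positive for 7 of 9, with a median of 0.14 and 0 at an unadjusted p under 0.05. S100a13 had 32.7, 51.2 and 51.9 CPM in the triple-labelled libraries, against 33.7, 38.5 and 35.7 CPM in the homozygous-labelled libraries, with triple-labelled replicate 1 below all 3 homozygous-labelled libraries.

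Sums of several lists followed the division of the libraries, among them the cytokine, disease-associated and lysosome sums given above. In the glycolysis and antioxidant lists, too, homozygous-labelled replicate 2 was high like triple-labelled replicates 2 and 3. Glycolysis and hypoxia genes summed to 4510, 7339 and 7126 CPM in the triple-labelled libraries, against 4438, 6774 and 4453 CPM in the homozygous-labelled libraries. Antioxidant genes summed to 18435, 31500 and 30357.5 CPM, against 18095.5, 29018 and 18229 CPM. Of 27 glycolysis and hypoxia genes, 22 were positive with a median of 0.21, and 0 had an unadjusted p under 0.05. Hk2, a hexokinase, had 24.8, 33.3 and 31.6 CPM in the triple-labelled libraries, against 24.1, 10.1 and 17.6 CPM in the homozygous-labelled libraries. It did not follow the division, since homozygous-labelled replicate 2 was lowest. P4ha1, a collagen prolyl hydroxylase induced by hypoxia, had 109.9, 203 and 160.3 CPM in the triple-labelled libraries, against 99.8, 129 and 123 CPM in the homozygous-labelled libraries, with triple-labelled replicate 1 inside the homozygous-labelled range. The median of this list without homozygous-labelled replicate 3 was 0.10, and without triple-labelled replicate 1 it was 0.41. Of 24 antioxidant genes, 21 were positive with a median of 0.21, which was 0.13 without homozygous-labelled replicate 1 and 0.33 without homozygous-labelled replicate 2. Taldo1, an enzyme of the pentose phosphate pathway, had 767, 1094 and 1101 CPM in the triple-labelled libraries, against 702, 812 and 751 CPM in the homozygous-labelled libraries. Srxn1, which restores peroxiredoxins, had 37.6, 37.1 and 34.4 CPM in the triple-labelled libraries, against 27.6, 28.6 and 23.4 CPM in the homozygous-labelled libraries, with no overlap.

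Cholesterol and fatty acid synthesis genes were negative for 20 of 29, with a median of -0.14. The median was -0.03 without homozygous-labelled replicate 2 and -0.21 without triple-labelled replicate 1. Summed over the list they had 1927, 1927 and 1910 CPM in the triple-labelled libraries, against 1895, 2497 and 1970 CPM in the homozygous-labelled libraries, with homozygous-labelled replicate 2 alone high. Scd2, a stearoyl-CoA desaturase, had 40.6, 50.3 and 35.9 CPM in the triple-labelled libraries, against 54.3, 99.6 and 56.4 CPM in the homozygous-labelled libraries, and Sqle, squalene epoxidase, had 94.9, 65.8 and 71.2 CPM in the triple-labelled libraries, against 105, 120.1 and 95.1 CPM in the homozygous-labelled libraries. Neither gene overlapped between the groups, and the log2 fold changes were -0.73 (interval -1.40 to 0.04) and -0.46 (interval -0.97 to 0.04). Of 26 immediate early genes, 17 were negative with a median of -0.16. Myc, a growth-promoting transcription factor, had 26.5, 26.3 and 18.1 CPM in the triple-labelled libraries, against 36.2, 48.3 and 33 CPM in the homozygous-labelled libraries, lower by value in all triple-labelled libraries at -0.73 (interval -1.20 to -0.28) and close to the WT level of 22, 28 and 26.1 CPM. Egr2 had 11.4, 15.7 and 8.49 CPM in the triple-labelled libraries, against 12.6, 45.6 and 12.6 CPM in the homozygous-labelled libraries, where homozygous-labelled replicate 2 alone was high. Heat shock genes were negative for 7 of 10 (median -0.11), among them Dnaja1, an HSP70 co-chaperone, with 50.1, 50.6 and 46.2 CPM in the triple-labelled libraries, against 68, 72.9 and 59.2 CPM in the homozygous-labelled libraries. The median of the heat shock list was 0.02 without homozygous-labelled replicate 2 and -0.15 without triple-labelled replicate 1.

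The integrated and endoplasmic reticulum stress list had 16 of 28 positive (median 0.19), with Ppp1r15a, which encodes the phosphatase subunit GADD34, at 17.1, 23.8 and 24.5 CPM in the triple-labelled libraries, against 8.94, 20.3 and 14.1 CPM in the homozygous-labelled libraries. TGF-beta signalling genes were positive for 13 of 17 (median 0.20). Ski, a repressor of SMAD proteins, had 43.6, 42.3 and 49.3 CPM in the triple-labelled libraries, against 33.4, 33.8 and 37.1 CPM in the homozygous-labelled libraries. Smad7, the inhibitory SMAD, had 4.62, 4.17 and 3.78 CPM in the triple-labelled libraries, against 1.65, 2.43 and 1.34 CPM in the homozygous-labelled libraries. Both were higher without overlap, by 0.38 (interval 0.07 to 0.69) and 1.21 (interval 0.19 to 2.33) on the log2 scale.

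Mitosis genes had a median close to 0 between the genotypes, while most DNA replication genes had negative values. Of 28 mitosis genes, 17 were positive with a median of 0.07 and 0 had an unadjusted p under 0.05. Mki67 had 8.48, 14 and 22 CPM in the triple-labelled libraries, against 8.27, 26.2 and 8.59 CPM in the homozygous-labelled libraries, with the libraries of low mitochondrial share, triple-labelled replicate 1 and homozygous-labelled replicates 1 and 3, close together at 8.27 to 8.59 CPM. Plk1, a mitotic kinase, had 11.1, 18.8 and 9.66 CPM in the triple-labelled libraries, against 8.89, 4.79 and 8.7 CPM in the homozygous-labelled libraries, and Shcbp1, a spindle protein, had 8.66, 10.8 and 7.93 CPM in the triple-labelled libraries, against 6.15, 32.5 and 6.49 CPM in the homozygous-labelled libraries. Leaving out homozygous-labelled replicate 2 put the median of the list at 0.37 and the log2 fold change of Shcbp1 at 0.52 in place of -0.72. DNA replication and S phase genes were negative for 21 of 26, with a median of -0.39. An unadjusted p under 0.05 was found for 2 (7.69%, against 5.51% of all genes). Summed over the list they had 762, 815 and 748 CPM in the triple-labelled libraries, against 795, 1270.3 and 794 CPM in the homozygous-labelled libraries, with homozygous-labelled replicate 2 alone high. The median was -0.12 without homozygous-labelled replicate 2 and -0.52 without homozygous-labelled replicate 1. Tk1, thymidine kinase, had 14, 6.8 and 9.38 CPM in the triple-labelled libraries, against 14.3, 18.9 and 13.3 CPM in the homozygous-labelled libraries, and Gins2, a replication helicase subunit, had 9.84, 9.44 and 8.87 CPM in the triple-labelled libraries, against 12.5, 18.9 and 10.9 CPM in the homozygous-labelled libraries. Gins2 alone of this pair did not overlap.

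Of 5 tested linker histone genes, 3 were positive, and H1f0 had 78.9, 67 and 68.5 CPM in the triple-labelled libraries, against 65, 48.7 and 58.3 CPM in the homozygous-labelled libraries. Cytosolic ribosomal protein genes were the most uniform list, with 16 of 31 positive, a median of 0.01 and log2 fold changes from -0.30 to 0.15. Of 13 mitochondrially encoded genes, 6 were positive, and the median of 0.00 became 0.73 without homozygous-labelled replicate 2 and -0.32 without homozygous-labelled replicate 1. mt-Nd3, a subunit of respiratory complex I, had 2.55, 7.1 and 6.63 CPM in the triple-labelled libraries, against 2.02, 0.208 and 3.22 CPM in the homozygous-labelled libraries. Of 5 sex-linked genes, 4 were positive. The Y-linked Eif2s3y had 0, 17 and 15.2 CPM in the triple-labelled libraries, against 0, 8.46 and 0 CPM in the homozygous-labelled libraries and Kdm5d had 0, 7.46 and 10.7 CPM in the triple-labelled libraries, against 0, 3.12 and 0 CPM in the homozygous-labelled libraries, at 0 in the same 3 libraries.

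Markers fixed for the cell types of the culture showed microglia throughout. All 12 microglia and macrophage markers were detected in each library, and their summed level was 11819.7, 11783 and 12321 CPM in the triple-labelled libraries, against 12017, 10842 and 11659 CPM in the homozygous-labelled libraries. Csf1r, the receptor microglia need to survive, had 2658, 2237 and 2413 CPM in the triple-labelled libraries, against 2618, 1619 and 2461 CPM in the homozygous-labelled libraries, lowest in homozygous-labelled replicate 2. Border macrophage and monocyte markers were also present, led by Ms4a7 at 592, 496 and 557 CPM in the triple-labelled libraries and 614, 552 and 611 CPM in the homozygous-labelled libraries, with 7 of 9 tested negative and a median of -0.22. Of 15 markers of other blood cells, 0 reached the level for testing. In bulk RNA, fewer cells of a type and less RNA per cell cannot be told apart.

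Markers of fibroblasts, mural and endothelial cells were the list with the largest median, and it was positive. All 11 tested members had a positive log2 fold change, with a median of 1.89. An unadjusted p under 0.05 was found for 4 (36.4%, against 5.51% of all genes). Their summed level was 166, 473 and 439.7 CPM in the triple-labelled libraries, against 158, 248 and 153 CPM in the homozygous-labelled libraries and 408, 457 and 130.5 CPM in WT libraries. The sums overlapped, and in each of these genotypes the low sums were those of libraries with no Y-linked count. This did not hold in Tbk1+/- libraries, where replicate 2 had the lowest sum, 196 CPM, and the highest Y-linked level, 187.2 CPM of the total. Fn1, fibronectin, which macrophages can also make, gave most of the sum, with 146, 434 and 366 CPM in the triple-labelled libraries, against 142, 241 and 136 CPM in the homozygous-labelled libraries. Col1a2, a chain of type I collagen, had 0.711, 3.95 and 13.3 CPM in the triple-labelled libraries, against 0.413, 0.486 and 1.93 CPM in the homozygous-labelled libraries. Acta2, smooth muscle actin, had 1.54, 7.32 and 9.61 CPM in the triple-labelled libraries, against 1.91, 0.971 and 0.751 CPM in the homozygous-labelled libraries. Dcn, the matrix proteoglycan decorin, had 0.474, 2.19 and 4.76 CPM in the triple-labelled libraries and no count in the 3 homozygous-labelled libraries, so no fold is given. Rgs5, a pericyte marker, had no count in any library of the series, and Cldn5, an endothelial marker, was at 0.139 CPM or less in the 6 libraries. Lox, among the genes with the smallest p, belongs to this list, and the part of these markers in the other differences was not tested beyond a fit with their summed level as a covariate, which also called 0 genes.

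Astrocyte markers summed to 25, 62.2 and 66.6 CPM in the triple-labelled libraries, against 32.2, 37.4 and 32.3 CPM in the homozygous-labelled libraries, with 4 of 7 tested positive. Gfap, the astrocyte filament protein, had 1.72, 1.61 and 3.87 CPM in the triple-labelled libraries, against 0.258, 0 and 0.429 CPM in the homozygous-labelled libraries, without overlap, while S100b had no count in these 6 libraries. Oligodendrocyte lineage markers summed to 163, 172 and 136 CPM in the triple-labelled libraries, against 162, 157 and 140.2 CPM in the homozygous-labelled libraries, mostly from Cnp and Mbp. Neuron markers were negative for all 7 tested and summed to 13.6, 2.56 and 4.81 CPM in the triple-labelled libraries, against 19.4, 4.99 and 15 CPM in the homozygous-labelled libraries, with Nefl at 0 in all 6. Without triple-labelled replicate 1 the median of the neuron list was -1.76 in place of -0.55.

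**Figure D4:**
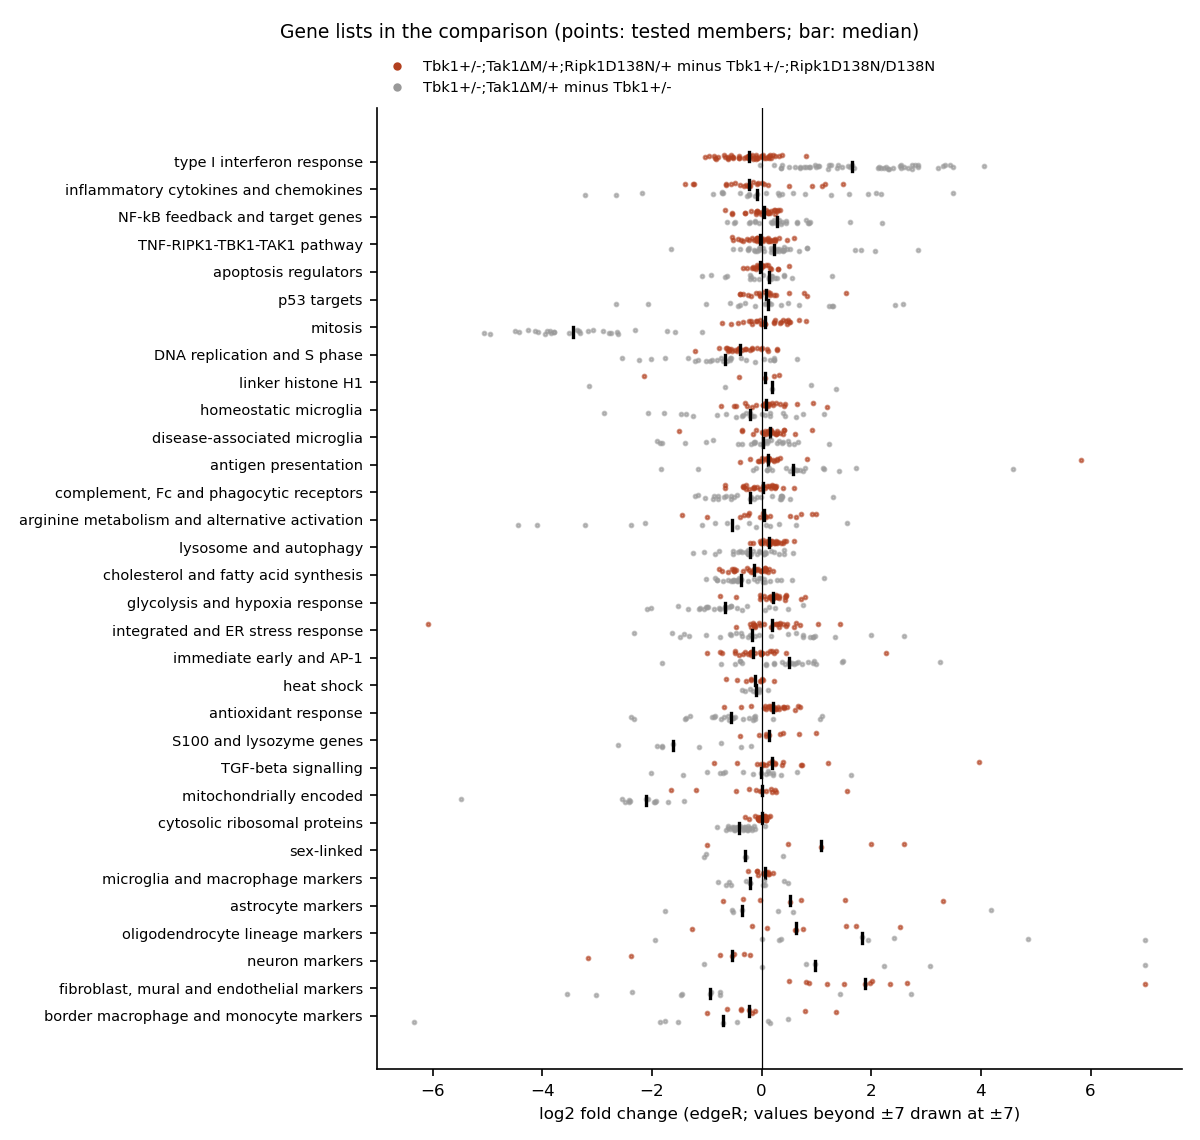
Log2 fold change (x axis, edgeR) of each tested member of each gene list (rows) for the triple-labelled minus the homozygous-labelled libraries and, in grey, for Tbk1+/-;Tak1ΔM/+ minus Tbk1+/- libraries; black bars are medians. In the first comparison the interferon list has a median of -0.22, the DNA replication list of -0.39 and the fibroblast, mural and endothelial list of 1.89, while the interferon list at 1.64 and the mitosis list at -3.44 stand away from 0 in the second.

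The design also allows the difference between genotypes with and without the Tak1 allele to be set side by side with and without Ripk1 D138N, on libraries that are not shared: triple-labelled minus homozygous-labelled, against Tbk1+/-;Tak1ΔM/+ minus Tbk1+/-. This asks whether the change that goes with the Tak1 allele depends on the Ripk1 allele, with the limits that the D138N dose differs within the first pair and that the pairs also differ in Tbk1 level. As given above, 5 of the 6 libraries labelled with D138N had Tbk1 within the WT range, while the 6 libraries of the second pair had 50.5 to 66 CPM. D138N and the Tbk1 level therefore cannot be told apart in this contrast. In the second pair 1974 of 13447 genes were called (14.7%), 866 higher (6.44%) and 1108 lower (8.24%) in Tbk1+/-;Tak1ΔM/+ libraries. The difference between the differences was called for 486 genes (3.61%), 310 above 0 (2.31%) and 176 below 0 (1.31%), by the interaction contrast of the same edgeR fit with Benjamini-Hochberg adjustment. For the 310 genes above 0 the median log2 fold change was 0.18 between the Ripk1 genotypes and -1.30 between the genotypes without D138N, of which 296 were called in that pair. For the 176 below 0 the medians were -0.23 and 1.20, with 165 called.

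This count moved with single libraries and with covariates. Leaving out triple-labelled replicate 1, 2 or 3 gave 839, 161 and 172 genes, and leaving out homozygous-labelled replicate 1, 2 or 3 gave 165, 597 and 194. It was 182, 249 and 175 without Tbk1+/-;Tak1ΔM/+ replicate 1, 2 or 3, and 205, 958 and 255 without Tbk1+/- replicate 1, 2 or 3. With the mitochondrial share of each library as a covariate, 4 genes were called: Isg15, Cxcl10, Cd81 and Rsad2. With the summed fibroblast, mural and endothelial markers as a covariate, an alternative chosen after seeing the data, the 4 genes were Ube2c, Isg15, Cd81 and Lyz2. The mitochondrial share was 0.512%, 0.508% and 0.367% in Tbk1+/-;Tak1ΔM/+ libraries, against 2.20%, 1.82% and 2.00% in Tbk1+/- libraries, without overlap. The summed fibroblast, mural and endothelial markers were at 103, 86.7 and 115 CPM in Tbk1+/-;Tak1ΔM/+ libraries, against 768, 196 and 1225 CPM in Tbk1+/- libraries, also without overlap. In that pair neither measure can be told apart from genotype.

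Type I interferon response genes were called below 0 in this contrast for 27 of 51, with a median of -1.92, and 0 were called above 0. Leaving out each library in turn left 20 to 34 called, and the mitochondrial and fibroblast-marker covariates left 3 and 1, with medians of -1.68 and -1.12. Ifit3, an interferon-induced antiviral protein, had 10.1, 4.9 and 10.2 CPM in the triple-labelled libraries, against 11.4, 19.1 and 10 CPM in the homozygous-labelled libraries. It had 80.7, 76.4 and 81.5 CPM in Tbk1+/-;Tak1ΔM/+ libraries, against 3.86, 19.4 and 2.32 CPM in Tbk1+/- libraries. The log2 difference of differences was -3.89 ± 0.76 (SE, adjusted p = 0.0123, edgeR). Cxcl10, an interferon-induced chemokine, had 3.02, 3.37 and 4.34 CPM in the triple-labelled libraries, against 4.13, 3.95 and 4.62 CPM in the homozygous-labelled libraries. It had 18.4, 15 and 17.1 CPM in Tbk1+/-;Tak1ΔM/+ libraries, against 1.35, 2.06 and 1.06 CPM in Tbk1+/- libraries, a difference of differences of -3.73 ± 0.61 (adjusted p = 0.00759, edgeR). In both genes the 3 Tbk1+/-;Tak1ΔM/+ libraries stood above all the others, and the Ripk1 genotypes overlapped each other. Isg15 had 26.1, 25.4 and 25.8 CPM in Tbk1+/-;Tak1ΔM/+ libraries, against 1.88, 2.63 and 3.12 CPM in Tbk1+/- libraries, and a difference of differences of -3.20 ± 0.35 (adjusted p = 0.000248, edgeR). Mx1 and Ifit3b, further antiviral genes, had -4.34 and -4.03. Ifit3 and Ifit3b are near copies of each other, and reads may have been split between them.

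The promoters of these genes are shown because the interferon list, which moved together in the Tbk1+/-;Tak1ΔM/+ libraries, is known to be driven through the interferon-stimulated response element. The capitals mark the core of that element, which is 2 copies of GAAA with 2 bases of any kind between them, or its reverse complement, searched on both strands from 250 bases before to 50 after the start in RefSeq promoters of GRCm38.p6. Stretches lie at chr19:34583387-34583436 (plus strand) for Ifit3, at chr19:34607783-34607832 (plus strand) for Ifit3b, whose stretch has the same letters, and at chr5:92349073-92349122 (minus strand) for Cxcl10.
Ifit3: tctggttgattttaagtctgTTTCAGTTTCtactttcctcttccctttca
Cxcl10: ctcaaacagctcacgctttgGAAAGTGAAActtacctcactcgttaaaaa
The motif was in 27 of the 39 list members with a promoter in the table (69.2%), in 1 of 23 mitosis genes (4.35%) and in 1079 of all 27025 genes (3.99%). Mx1 had no promoter in the table. A match describes the letters and not a bound site.

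Mitosis genes were called above 0 for 24 of 28, with a median of 3.68, and 0 were called below. The count ran from 15 to 26 with each library left out, was 5 by limma-voom and 26 by DESeq2, and was 0 with the mitochondrial and 1 with the fibroblast-marker covariate, where the medians were 2.32 and 1.40. Summed over the list, mitosis genes had 93.2, 79.5 and 102 CPM in Tbk1+/-;Tak1ΔM/+ libraries, against 1085, 314 and 1123 CPM in Tbk1+/- libraries. WT libraries had 426, 536 and 352 CPM. Tbk1+/- replicate 2, the lowest of its group in this sum, was also the lowest in the fibroblast, mural and endothelial sum given above, and the part of those cells was not tested beyond the covariate. Mki67 had 1.27, 2.14 and 1.19 CPM in Tbk1+/-;Tak1ΔM/+ libraries, against 70.9, 15.4 and 61.1 CPM in Tbk1+/- libraries, and a difference of differences of 5.12 ± 0.86 (adjusted p = 0.00759, edgeR). Ube2c, a ubiquitin-conjugating enzyme of the anaphase-promoting complex, had 12.6, 20.4 and 14.2 CPM in the triple-labelled libraries, against 9.35, 15.8 and 10.7 CPM in the homozygous-labelled libraries. It had 1.64, 0.902 and 1.59 CPM in Tbk1+/-;Tak1ΔM/+ libraries, against 29.9, 11.8 and 41.3 CPM in Tbk1+/- libraries, a difference of differences of 4.66 ± 0.57 (adjusted p = 0.000836, edgeR). For Ube2c and Mki67 each Tbk1+/-;Tak1ΔM/+ library was below every library of the other 3 genotypes of the contrast, and Tbk1+/- replicate 2 was well below Tbk1+/- replicates 1 and 3. Ccnb2, a mitotic cyclin, and Nusap1, a spindle protein, had 4.94 and 4.72.

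The promoter stretches of mitosis genes are shown for the cell cycle genes homology region, known for holding mitotic genes silent in resting cells. The capitals mark TTTGAA or its reverse complement TTCAAA, searched in the same windows on both strands, at chr7:135716452-135716497 (minus strand) for Mki67, chr9:70421696-70421741 (minus strand) for Ccnb2 and chr2:164769880-164769925 (plus strand) for Ube2c.
Mki67: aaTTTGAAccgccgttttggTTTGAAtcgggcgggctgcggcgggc
Ccnb2: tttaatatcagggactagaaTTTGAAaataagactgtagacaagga
Ube2c: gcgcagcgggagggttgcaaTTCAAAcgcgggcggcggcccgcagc
The 6 letters were in 16 of 23 mitosis genes with a promoter in the table (69.6%), in 7 of 39 interferon genes (17.9%) and in 5466 of 27025 genes (20.2%). Nusap1 had no match before the start in its window, so no stretch is shown. Here too a match describes letters and not a bound site.

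**Figure D5:**
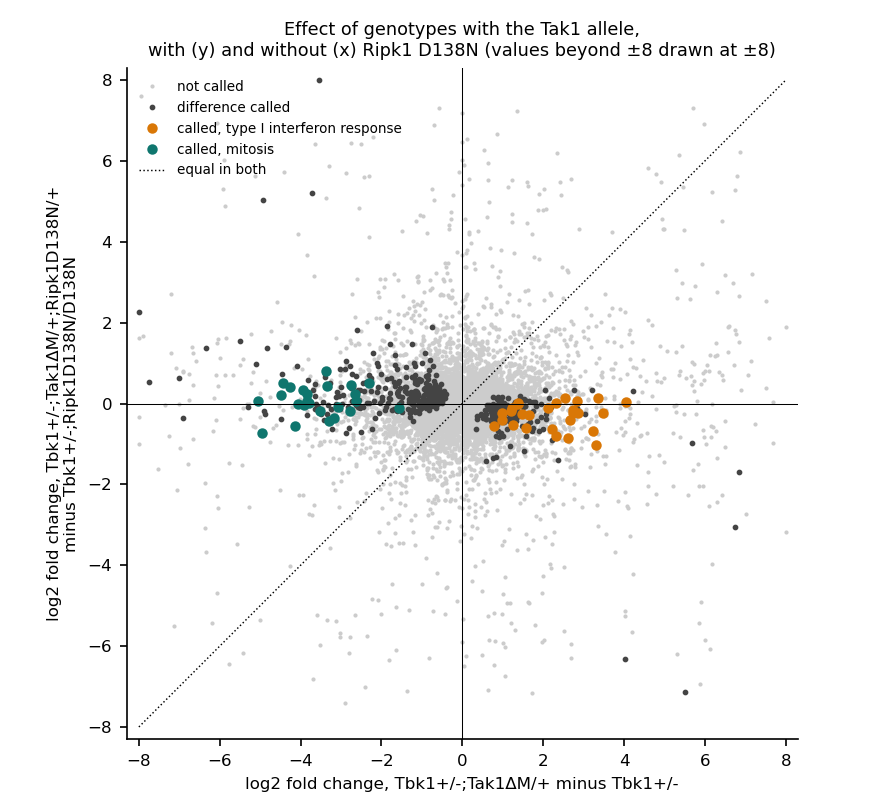
Log2 fold change of triple-labelled minus homozygous-labelled libraries (y axis) against Tbk1+/-;Tak1ΔM/+ minus Tbk1+/- libraries (x axis) for each tested gene, with values beyond 8 drawn at 8; dark points are the 486 genes whose difference was called, orange and green points the called interferon and mitosis genes. The 310 called genes above 0 have medians of 0.18 on the y axis and -1.30 on the x axis, and the 176 below 0 have -0.23 and 1.20, with the interferon genes to the right and the mitosis genes to the left.

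Other lists had fewer calls in this contrast, where 2.31% of all genes were called above 0 and 1.31% below 0. Arginine metabolism and alternative activation genes were called above 0 for 5 of 16 and below 0 for 1. Fibroblast, mural and endothelial markers were called above 0 for 3 of 11. With single libraries dropped, the counts above 0 ran from 2 to 5 and from 1 to 3, and both were 0 with the mitochondrial covariate. Lyz2 had 7999.8, 8114 and 8923 CPM in Tbk1+/-;Tak1ΔM/+ libraries, against 26535, 39479 and 21913 CPM in Tbk1+/- libraries, and a difference of differences of 1.95 ± 0.28 (adjusted p = 0.00329, edgeR). Each Tbk1+/-;Tak1ΔM/+ library was far below all 6 libraries labelled with D138N. Arg1 had 5.57, 4.51 and 6.27 CPM in Tbk1+/-;Tak1ΔM/+ libraries, against 187, 21.7 and 154 CPM in Tbk1+/- libraries, and a difference of differences of 5.18 ± 0.80 (adjusted p = 0.00644, edgeR). Homeostatic microglia genes were called above 0 for 5 of 25, among them Cd33, a sialic acid receptor, at 3.02, and Gpr34 at 2.14. S100 and lysozyme genes were called for 4 of 9, with S100a4 at 3.3 and S100a6 at 2.29, and lysosome genes for 4 of 30, with Glb1 at 1.28. Within the pathway of the altered kinases, 4 of 36 were called, all below 0, against 1.31% of all genes called below 0 and 3.61% in either direction. When single libraries were dropped, 2 to 7 homeostatic, 3 to 5 S100 and lysozyme and 1 to 5 lysosome genes were called above 0, and 3 to 5 pathway genes below 0. With the mitochondrial covariate 0 genes of these 4 lists were called, and with the fibroblast-marker covariate 1, among the S100 and lysozyme genes. Zbp1, a nucleic acid sensor that can engage RIPK3, had 4.74, 3.66 and 4.9 CPM in the triple-labelled libraries, against 7.29, 3.61 and 4.78 CPM in the homozygous-labelled libraries. It had 22.9, 20 and 24 CPM in Tbk1+/-;Tak1ΔM/+ libraries, against 1.49, 5.77 and 1.99 CPM in Tbk1+/- libraries. Chuk, which encodes the kinase IKK alpha, had 28.3, 16.9 and 12 CPM in the triple-labelled libraries, against 34.5, 23.2 and 16.5 CPM in the homozygous-labelled libraries, and its difference of differences was -2.45.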

How the data were processed

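Polyadenylated RNA was copied to cDNA by the Smart-seq2 method and sequenced as paired reads of 50 bases, per the labels. The deposited values are raw counts of reads per gene, with no normalization by the authors. Per the submitters' processing notes, reads were aligned with STAR to mm10 and counted with featureCounts, while the labels' protocol names RSEM; versions, annotation and strand setting are not given in the sources used here. The method does not mark strand, so overlapping genes cannot be told apart. Of 50686 identifiers, 50462 matched a symbol, and every column was mapped to a sample.

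All 18 libraries entered 1 fit of edgeR 4.0.16 (R 4.3.3; limma 3.58.1, DESeq2 1.42.0) with a term per genotype, after filterByExpr and TMM scaling. The quasi-likelihood test was used, Benjamini-Hochberg adjustment ran over 13447 genes, and a call was an adjusted p under 0.05. SE of a log2 fold change was derived from its F statistic. The fit was checked on simulated data. Total counts were 14290775 to 22989116 in the 6 libraries compared; intervals are 95% intervals of limma-voom.

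Genes named by rule were Tbk1, Map3k7, Ripk1, Lyz2, Isg15 and Mki67; the 10 of smallest unadjusted p in each direction with at least 5 CPM in 1 group and no overlap; 5 in each direction of the difference of differences, where no fold change between any triple-labelled and homozygous-labelled library overlapped one between any Tbk1+/-;Tak1ΔM/+ and Tbk1+/- library; and up to 4 members per list. Genes cited from the marker lists, and Arg1 and Cd33 in the first comparison, were chosen after their values were seen. A gene that the rule also named is not reported here. The comparison, the 33 gene lists and the rules were chosen with earlier results of these data known. Promoter and coding stretches came from RefSeq and GENCODE M21. Alternatives were other tools, scalings, filters, covariates and libraries left out.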

Additional observations from a re-analysis of the deposited data

Results flagged for a closer look

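The results that stood out were differences between effects, where the change that goes with the Tak1 allele differed between the pairs with and without Ripk1 D138N, which also differ in Tbk1 level, by the interaction contrast of edgeR with Benjamini-Hochberg adjustment. They comprised 486 genes in all, and all rest on the Tbk1+/-;Tak1ΔM/+ and Tbk1+/- libraries as well as on the triple-labelled and homozygous-labelled libraries. As given above, the count was 4 with either the mitochondrial share or the fibroblast-marker level as a covariate.

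Values above 0 mean that the log2 fold change was higher between the triple-labelled and homozygous-labelled libraries than between the Tbk1+/-;Tak1ΔM/+ and Tbk1+/- libraries. They were 7.04 for mt-Nd3, 6.55 for the DNA glycosylase Neil3, 6.08 for the calcium pump Atp2a3, 5.18 for Arg1 and 5.12 for Mki67. In Tbk1+/-;Tak1ΔM/+ libraries Neil3 had 0.159, 0 and 0 CPM, mt-Nd3 0, 0 and 0.398 CPM and Atp2a3 0.212, 0.225 and 0.199 CPM. The fitted values of these genes therefore depend on few counts. Atp2a3 was also uneven in the homozygous-labelled libraries, at 3.77, 8.53 and 0 CPM. Mitosis genes gave 4.94 for Ccnb2, 4.72 for Nusap1 and 4.66 for Ube2c. Microglial genes gave 3.02 for Cd33, 2.14 for Gpr34, 2.46 for the protease inhibitor Cst7, 1.95 for Lyz2 and 1.75 for the inhibitory Fc receptor Fcgr2b. Lysosomal genes gave 1.28 for Glb1 and 0.91 for the membrane protein Lamp2. The S100 genes S100a4 and S100a6 had 3.3 and 2.29. Metabolic and stress genes gave 5.01 for argininosuccinate synthase Ass1, 3.02 for the cystine transporter Slc7a11, 1.29 for the chaperone Dnajb9 and 1.81 for the ferritin heavy chain Fth1. Slc7a11 had 33.4, 11.9 and 54.2 CPM in Tbk1+/- libraries. It had 6.57, 6.76 and 6.57 CPM in Tbk1+/-;Tak1ΔM/+ libraries and 6.96, 8.43 and 1.74 CPM in WT libraries. For Ass1, Dnajb9 and Fth1 each Tbk1+/-;Tak1ΔM/+ library lay below every WT and Tbk1+/- library. Ass1 varied within the Tbk1+/- libraries, at 8.68, 0.685 and 15.5 CPM. The ribosomal protein gene Rpl32 had 0.61.

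Values below 0 were -4.34 for Mx1, -4.03 for Ifit3b, -3.89 for Ifit3, -3.73 for Cxcl10, -3.20 for Isg15 and -3.09 for Zbp1, all interferon-induced. They were -3.91 for the ubiquitin ligase adaptor Kctd6, -3.77 for the endosomal adaptor Wdfy1, -2.45 for Chuk and -1.61 for the activating Fc receptor Fcgr1. Wdfy1 had 7.0, 3.15 and 6.21 CPM in the triple-labelled libraries, against 7.65, 29.6 and 6.6 CPM in the homozygous-labelled libraries, where homozygous-labelled replicate 2 alone was high.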

How the results depend on the processing

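Between the triple-labelled and homozygous-labelled libraries, 0 genes were called under all alternatives run (DESeq2, limma-voom, DESeq2 size factors, a filter of at least 5 CPM, a log2 fold change of at least 1, only the 6 libraries, 3 covariates, each library left out, and homozygous-labelled replicates 1 and 3 left out together) except no low-count filter, which called 70. Unadjusted p was under 0.05 for 526 to 1159 genes with 1 library left out. Of the genes taken by the naming rule in this comparison, of which Vldlr, Hsp90aa1, Aldoc, Dcx and F13a1 appear here alone, Mki67 changed sign with the Y-linked level (-0.23) or the fibroblast-marker level (-0.65) as a covariate. Signs also changed with 1 library left out, where the log2 fold change ran between -0.19 and 0.31 for Tbk1, -0.28 and 0.88 for Ripk1, -0.0269 and 0.23 for Lyz2, -0.0146 and 0.24 for Isg15, -0.37 and 0.81 for Mki67, -1.86 and 0.26 for Ccl2, -1.12 and 0.52 for Shcbp1, -6.65 and 0 for Vldlr, and -0.45 and 0.0197 for Hsp90aa1. Vldlr had no count in the triple-labelled libraries, so its fitted values depend on the prior count and are no fold. Without both homozygous-labelled replicates 1 and 3 it was -0.0323 for Isg15, -0.81 for Mki67, 0 for Vldlr, -0.0140 for Aldoc, 0.74 for Dcx and 0.0646 for F13a1. The 486 genes of the difference of differences became 1076 with DESeq2, 1254 without a low-count filter, 4 with the mitochondrial share and 4 with the fibroblast-marker level as a covariate, and 161 to 958 with 1 library left out. Ass1 changed sign with the fibroblast-marker covariate (-1.06). The 1974 genes between Tbk1+/-;Tak1ΔM/+ and Tbk1+/- became 919 when a change of 1 on the log2 scale was also required, 49 and 132 with the mitochondrial and fibroblast-marker covariates, and 1071 to 2213 with 1 library left out. The causes were not tested. With the replicate number as a block, the counts were 0, 456 and 1949. Same-numbered libraries of the pair deviated together at correlations of 0.136, 0.114 and -0.0216 across genes, not all above 0.1, so the numbers were not taken as pairs. Depth limits low genes: the 95% interval lay within a log2 change of 1 for 55.1% of the genes tested.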
